A study of Mus musculus with 6 samples.

Results

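The 9 genes described here serve the binding and metabolism of retinoids, the vitamin A compounds. They were taken by exact gene name from the 55426 genes of the deposited table, and all 9 were found. The set was chosen by name with the differences in TPM between knockout and control in these libraries already known. *Rbp4* encodes the plasma carrier of retinol, *Stra6* its membrane receptor and *Rbp7* an intracellular retinol carrier. *Aldh1a1* and *Aldh1a2* encode retinaldehyde dehydrogenases, which make retinoic acid, and *Dhrs3* encodes a reductase that returns retinaldehyde to retinol. *Crabp1* and *Crabp2* encode the intracellular carriers of retinoic acid, and *Rarb* encodes one of its nuclear receptors. In general, retinol enters a cell, is oxidised to retinaldehyde and then to retinoic acid, and retinoic acid acts through RAR and RXR receptors bound to DNA as pairs. *Rarb*, *Stra6*, *Dhrs3* and the catabolic *Cyp26* genes are well known as genes that retinoic acid induces. In blood vessels and fat, *Rbp7* is known from endothelial cells and adipocytes, and *Rbp4* from adipocytes and liver.

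Abdominal aortas of male mice were compared between 3 Prdm16SMKO and 3 control libraries made from polyadenylated RNA. Prdm16SMKO mice were homozygous for a floxed *Prdm16* allele (Prdm16flox/flox) and carried Myh11-CreERT2, a tamoxifen-inducible Cre recombinase on the Y chromosome that is driven by the smooth muscle *Myh11* promoter. Control mice, called wild type by the study, carried Myh11-CreERT2 without the floxed allele. All labels give the strain as C57BL/6J. The study's males received tamoxifen at 75 mg/kg/day on 5 days when 8 to 10 weeks old and entered experiments 2 weeks later. The sources used here do not say when the aortas for sequencing were taken, or separately whether control mice received tamoxifen. Cre is active in smooth muscle of other organs too, and other cells of the aorta keep *Prdm16*. The labels number the 3 libraries of a group without naming the mouse of each, and p-values measure the spread between these libraries.

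Values are TPM, a transcript abundance per length of transcript with 1 fixed sum per library, so levels can be compared between genes. Read depth per library cannot be recovered from TPM, and the number of genes above 0 TPM ran from 20332 to 22100. *Prdm16* itself had 33.4, 36.8 and 30.8 TPM in the control libraries and 20.8, 27.7 and 14.8 TPM in the Prdm16SMKO libraries (replicates 1, 2 and 3), with no overlap. Differences below are log2 fold changes, Prdm16SMKO minus control, on log2(TPM + 0.5) with their standard error (SE) from a limma fit to the 15775 genes that averaged 0.5 TPM or more. For *Prdm16* the log2 fold change was −0.70 (SE 0.23, limma adjusted p = 0.376). A gene was called at a Benjamini-Hochberg adjusted p under 0.05, which 56 genes (0.355%) reached, 29 higher (0.184%) and 27 lower (0.171%) in Prdm16SMKO mice. With median-of-ratios scaling of the TPM the split was 60 higher and 93 lower, and with quantile normalization 46 higher and 83 lower. The knockout comparison was known when the 9 genes were chosen, so their differences are a description and carry no p-value.

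Upstream sequences are shown for 3 genes. *Rbp7* and *Dhrs3* had the largest differences up and down among the 5 genes that could be tested and lie on the chromosome of *Prdm16*, and *Rarb* holds the classical retinoic acid response element. Each run is the 250 bases before a start site in RefSeq on GRCm38.p6, 5′ to 3′ on the strand of the gene, at chr4:149454969-149455218 (minus strand) for *Rbp7*, chr4:144892577-144892826 (plus strand) for *Dhrs3* and chr14:16575477-16575726 (minus strand) for *Rarb*. Capitals mark a match to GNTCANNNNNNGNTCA, a direct repeat of receptor half-sites (DR5). A half-site has 6 bases, of which the first was left free, so the 6 free letters between both GNTCA arms are a spacer of 5 and the first base of the second half-site.
Rbp7: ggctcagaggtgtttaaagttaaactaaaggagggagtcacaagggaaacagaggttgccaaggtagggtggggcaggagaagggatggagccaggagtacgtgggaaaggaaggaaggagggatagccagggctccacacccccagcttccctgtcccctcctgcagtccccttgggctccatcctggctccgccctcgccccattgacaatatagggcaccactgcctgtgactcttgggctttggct
Dhrs3: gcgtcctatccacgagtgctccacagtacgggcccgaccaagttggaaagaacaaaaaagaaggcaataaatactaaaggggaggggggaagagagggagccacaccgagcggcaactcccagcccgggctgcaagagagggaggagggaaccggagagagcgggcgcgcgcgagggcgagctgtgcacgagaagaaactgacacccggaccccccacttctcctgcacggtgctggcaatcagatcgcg
Rarb: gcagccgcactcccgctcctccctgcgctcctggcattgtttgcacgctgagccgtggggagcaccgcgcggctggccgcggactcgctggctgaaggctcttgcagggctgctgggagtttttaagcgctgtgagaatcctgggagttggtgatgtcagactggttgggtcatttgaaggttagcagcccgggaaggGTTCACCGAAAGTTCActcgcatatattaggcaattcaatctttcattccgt

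RefSeq held start sites for 8 of the 9 genes, as 15 windows of 250 bases before and 50 bases after a start. The *Rarb* element, GTTCACCGAAAGTTCA, lies from base −52 to base −37 relative to the start, inside the *Rarb* gene span, whose 5′ end lies farther upstream. It was the 1 DR5 match in the 15 windows on either strand, and 0.861% of all 32851 windows hold one. The shorter spacings DR1 (GNTCANNGNTCA) and DR2 (GNTCANNNGNTCA), held by 1.26% and 1.12% of all windows, had 0 matches in the 15. So had the single half-site AGGTCA, which is a special case of one arm of these repeats and is in 16.3% of all windows. A missing match says only that these letters are not in these windows.

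*Rbp7* was the gene of the set with the largest difference. Control replicates 1, 2 and 3 had 6.41, 6.67 and 7.55 TPM, and Prdm16SMKO replicates 1, 2 and 3 had 22.6, 18.6 and 37.8 TPM. All Prdm16SMKO libraries lay above all control libraries, and Prdm16SMKO replicate 3 was the highest. Means and SDs over 3 libraries were 6.88 ± 0.597 TPM for control and 26.3 ± 10.1 TPM for Prdm16SMKO mice, which is 3.82 times as high, with a log2 fold change of 1.80 (SE 0.25). Ranked from the highest difference down, this was place 56 of 15775 genes. In whole tissue, more cells that express a gene and more RNA per cell cannot be told apart. *Rbp7* (ENSMUSG00000028996) spans 149449687 to 149454978 on the minus strand of chromosome 4 of GRCm38, with a longest transcript of 619 bases. Of the 31-base words in its transcripts, 2.81% also occur in transcripts of other genes.

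*Rbp4* had the highest level of the 9 genes in both groups. It was at 199, 212 and 173 TPM in control and at 181, 194 and 140 TPM in Prdm16SMKO replicates 1, 2 and 3, and the groups overlapped. The log2 fold change was −0.19 (SE 0.17). *Rbp4* (ENSMUSG00000024990) lies on chromosome 19, 38116629 to 38125281. The receptor *Stra6*, which takes retinol from the *Rbp4* product, was at 0, 0.14 and 0.44 TPM in control and at 0.15, 0.24 and 0 TPM in Prdm16SMKO libraries. These levels are below the expression minimum, and *Stra6* was not tested.

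The enzymes that act on retinaldehyde had differences of opposite sign. For the reductase *Dhrs3*, control replicates 1, 2 and 3 had 99.5, 135 and 73.7 TPM, and Prdm16SMKO replicates had 71.2, 69.7 and 58.2 TPM. All Prdm16SMKO libraries were below all control libraries, although control replicate 3 and Prdm16SMKO replicate 1 lay close together. Means and SDs over 3 libraries were 103 ± 30.7 TPM for control and 66.4 ± 7.13 TPM for Prdm16SMKO mice, and the log2 fold change was −0.59 (SE 0.22). *Dhrs3* (ENSMUSG00000066026) lies on the plus strand of chromosome 4, 144892827 to 144928209. *Aldh1a1*, which oxidises retinaldehyde to retinoic acid, was at 14.8, 18.2 and 18.6 TPM in control and at 20.3, 33.4 and 21.7 TPM in Prdm16SMKO libraries. Here all Prdm16SMKO libraries were above all control libraries, with Prdm16SMKO replicate 2 the highest and the other libraries close to the control range. The log2 fold change was 0.51 (SE 0.21). *Aldh1a1* (ENSMUSG00000053279; chromosome 19, 20492715 to 20643465) shares 5.70% of its 31-base words with the paralog *Aldh1a7*, so some reads may be placed on either gene. *Aldh1a2*, known from mesothelium and embryonic mesoderm, was at 0.10 to 0.32 TPM in control and at 0.05 to 0.55 TPM in Prdm16SMKO libraries, below the minimum. The mesothelial markers *Msln*, *Upk3b*, *Wt1*, *Krt19*, *Upk1b* and *Lrrn4* were also below the minimum, with summed levels of 0.03 to 0.64 TPM.

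On the side of retinoic acid, *Rarb* was at 1.42, 1.77 and 1.39 TPM in control and at 3.01, 3.06 and 1.48 TPM in Prdm16SMKO replicates 1, 2 and 3. The groups overlapped, since Prdm16SMKO replicate 3 lay among the control libraries. Its log2 fold change was 0.53 (SE 0.29). *Rarb* (ENSMUSG00000017491) spans 16430839 to 16819156 on the minus strand of chromosome 14. The retinoic acid carriers were near the floor. *Crabp1* was at 0.62 TPM in control replicate 2 and 2.06 TPM in Prdm16SMKO replicate 1 and was listed at 0 in the other 4 libraries. *Crabp2* was at 0.14 TPM in replicate 1 of each group and was listed at 0 in the remaining libraries.

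**Figure D1:**
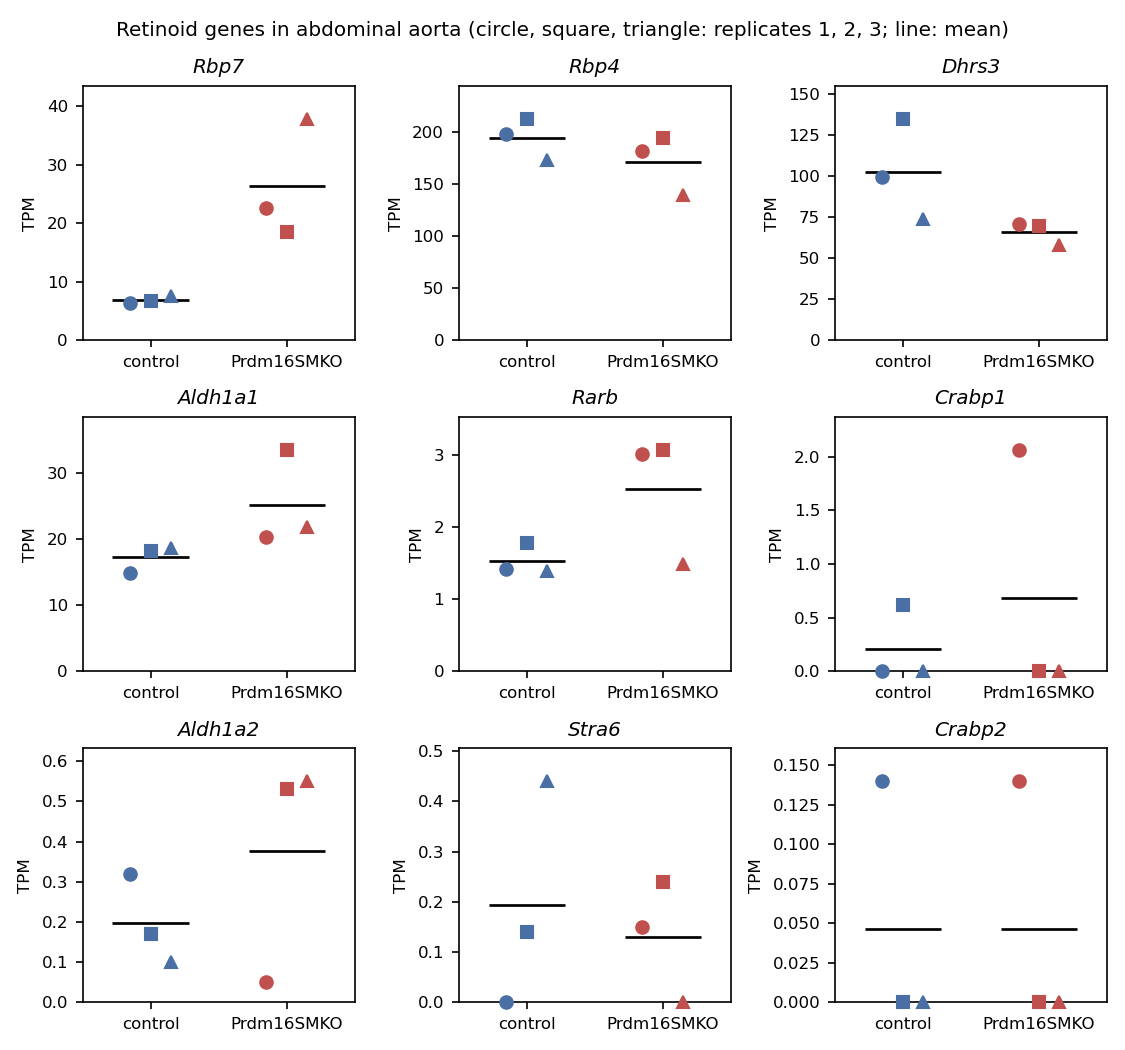
TPM of the 9 retinoid genes in each abdominal aorta library, with control in blue, Prdm16SMKO in red, a symbol for each replicate number, a line at the group mean and a separate axis from 0 for each gene. *Rbp7* separates the groups most clearly, at 6.41 to 7.55 TPM in control and 18.6 to 37.8 TPM in Prdm16SMKO libraries, while *Crabp1*, *Crabp2*, *Aldh1a2* and *Stra6* stay at or near 0 in most libraries.

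In control aortas the order of the mean levels was *Rbp4*, *Dhrs3*, *Aldh1a1*, *Rbp7* and *Rarb*, at 195, 103, 17.2, 6.88 and 1.53 TPM, and no neighbours in this order overlapped between libraries. The other 4 genes followed at 0.207 TPM or less with overlapping values. In Prdm16SMKO aortas *Rbp7* and *Aldh1a1* had similar levels, 26.3 ± 10.1 and 25.1 ± 7.18 TPM (SD, n = 3 each), and their libraries overlapped. Among all tested genes, *Rbp7* stood at percentile 46.6 by mean TPM in control and at percentile 78.8 in Prdm16SMKO aortas, and *Rbp4* at percentiles 97.4 and 97.1.

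Of the 9 genes, 5 passed the expression minimum and 4 did not. *Rbp7* was the 1 gene past the adjusted threshold, beside 0.355% of all tested genes. An unadjusted p under 0.05 was reached by *Rbp7* and *Aldh1a1*, higher, beside 4.88% of all tested genes, and by *Dhrs3*, lower, beside 3.85%. The same 3 genes were those whose groups did not overlap (12.8% of all tested genes), with 2 above control, beside 7.02% of all tested genes, and 1 below, beside 5.76%. Because the choice of these genes used the same comparison, nothing is read from these counts. Over 16 alternative settings the log2 fold change of *Rbp7* stayed between 1.51 and 2.01, and *Rbp7* was past the threshold in 8 of them. It was not past it without control replicate 1, 2 or 3, with either rescaling of the libraries, without a variance trend, without an expression minimum or with a replicate block. No setting turned the sign of any of the 5 genes, but the sizes of the other 4 moved. With 1 library left out, *Aldh1a1* ran from 0.29 (without Prdm16SMKO replicate 2) to 0.64 and *Rarb* from 0.38 to 0.81 (without Prdm16SMKO replicate 3). *Dhrs3* ran from −0.80 to −0.37 (without control replicate 2) and *Rbp4* from −0.28 to −0.05 (without Prdm16SMKO replicate 3). Without Prdm16SMKO replicate 3, the library with the highest *Rbp7*, the log2 fold change was 1.51.

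*Rbp7* and *Dhrs3* lie 4.86 Mb and 9.39 Mb from *Prdm16*, on the same chromosome. Leaving out *Rbp7*, *Dhrs3* and *Prdm16*, 192 tested genes lay within 15 Mb of *Prdm16*. Of these, 52 (27.1%) had an unadjusted p under 0.05 in limma, against 8.53% of the 14801 tested genes on other chromosomes and 7.34% of the 749 elsewhere on chromosome 4. At an adjusted p under 0.05 there were 7 of the 192, 1 higher and 6 lower (3.65%), against 0.318% on other chromosomes. DNA linked to the floxed allele is carried by Prdm16SMKO mice and may differ from that of control mice, so the loss of *Prdm16* and the origin of the linked DNA cannot be told apart for *Rbp7* and *Dhrs3*. *Rbp4*, *Aldh1a1*, *Rarb* and the 4 genes below the minimum lie on other chromosomes.

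Within 500 kb of *Rbp7*, 20 other genes were tested, 9 with a higher and 11 with a lower mean log2 value in Prdm16SMKO mice. None was called by limma (Benjamini-Hochberg), and in 4 (*Casz1*, *Ube4bos2*, *Lzic* and *Gm13071*) the unadjusted p was under 0.05, as in 8.74% of all tested genes and 27.1% of those within 15 Mb of *Prdm16*. The nearest genes on each side, *Ube4b* and *Nmnat1*, had log2 fold changes of −0.15 (SE 0.20) and 0.32 (SE 0.17). *Nmnat1*, which makes nuclear NAD, was at 4.34 to 4.60 TPM in control and 5.42 to 6.02 TPM in Prdm16SMKO libraries. The antisense transcript *Ube4bos2*, on the same side as *Ube4b*, was listed at 0 in all control libraries and was at 1.25, 1.28 and 3.32 TPM in Prdm16SMKO replicates (limma adjusted p = 0.0716, from 0.0120 to 0.232 over the alternatives). The processed pseudogene *Gm13071*, 45.7 kb away on the other side, was at 2.25, 1.09 and 2.57 TPM in control and was listed at 0 in all Prdm16SMKO libraries (limma adjusted p = 0.0553, from 0.00521 to 0.241). *Lzic* was lower in Prdm16SMKO libraries, at 10.1, 15.6 and 14.0 against 6.61, 8.77 and 10.1 TPM, with a log2 fold change of −0.61 (SE 0.22; limma adjusted p = 0.456). The transcript *Gm13065* was listed at 0 in all libraries but Prdm16SMKO replicate 3, where it had 73.5 TPM. Differences of both signs thus stood side by side around *Rbp7*. Within 500 kb of *Dhrs3* 3 other genes were tested and 0 were called or had an unadjusted p under 0.05 in limma. All 3 had negative log2 fold changes, −0.19 (SE 0.17) for the nearest, *Vps13d*, −0.55 (SE 0.26) for *Tnfrsf1b* and −0.61 (SE 0.30) for the pseudogene *Gm13127*. Over all tested genes 45.8% had negative ones.

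**Figure D2:**
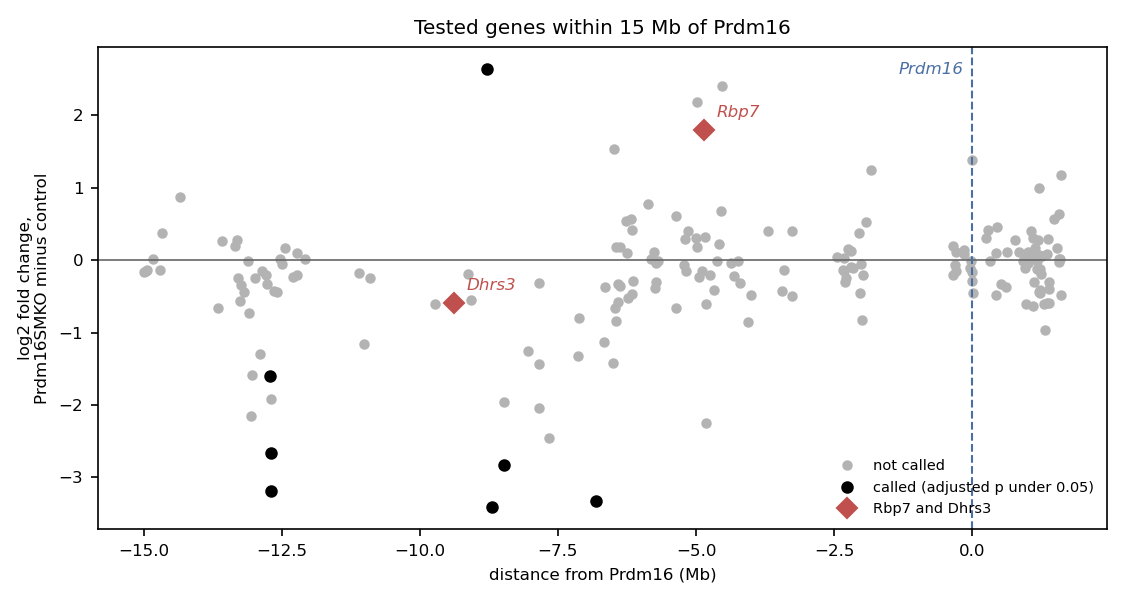
Fitted log2 fold change (Prdm16SMKO minus control) of the genes tested up to 15 Mb from *Prdm16* against their distance from it in Mb, where black points are called genes, grey points are genes that were not called and red diamonds are *Rbp7* and *Dhrs3*. *Rbp7*, at 4.86 Mb, stands at 1.80 with neighbours on both sides of 0, and *Dhrs3* at −0.59. Values of genes listed at 0 in a whole group depend on the pseudocount.

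The wider retinoid pathway was read from a list of 54 other genes. Of these, 33 passed the expression minimum, 18 with a higher and 15 with a lower mean log2 value in Prdm16SMKO mice, and 6 were listed at 0 in all libraries. Over all tested genes 54.2% had a higher mean log2 value. None of the 33 was called by limma (Benjamini-Hochberg), where 0.355% of all genes were, and 4 had an unadjusted p under 0.05, where 8.74% of all genes had. The median log2 fold change of the list was 0.01, against 0.02 over all tested genes. Over the 16 alternatives the list median ran from −0.10 (array weights) to 0.09 (without control replicate 2). With array weights or either rescaling it was negative, with more genes of the list lower than higher. The same held without control replicate 3, Prdm16SMKO replicate 2 or Prdm16SMKO replicate 3. In 7 of the 33 the groups were fully separate, beside 12.8% of all tested genes, with 3 above control, beside 7.02%, and 4 below, beside 5.76%.

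Of the other retinoid carriers and their receptors, *Rbp2*, *Rbp3*, *Ttr*, *Stra6l* and *Lrp2* were below the minimum. For storage, *Lipe*, the hormone-sensitive lipase that also splits retinyl esters in fat, was at 42.2, 21.6 and 14.9 TPM in control and 25.5, 20.7 and 100 TPM in Prdm16SMKO replicates. Prdm16SMKO replicate 3 alone stood far above the others. *Lipe* had a log2 fold change of 0.64 (SE 0.58, limma adjusted p = 0.882). *Dgat1*, which can esterify retinol, had a log2 fold change of 0.10 (SE 0.35, limma adjusted p = 0.987). Both turned negative with array weights or without Prdm16SMKO replicate 3, and over the alternatives *Lipe* ran from −0.23 to 1.07 and *Dgat1* from −0.31 to 0.39. *Lrat*, the main retinol esterifying enzyme, was at or near 0.

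Among the alcohol and retinol dehydrogenases, *Adh1*, a cytosolic enzyme that oxidises retinol, was at 15.8, 13.0 and 11.0 TPM in control and at 17.8, 33.4 and 36.4 TPM in Prdm16SMKO replicates. All Prdm16SMKO libraries were above all control libraries, with replicate 1 close to the control range. Its log2 fold change was 1.06 (SE 0.27, limma adjusted p = 0.234), from 0.82 to 1.38 over the alternatives, with adjusted p-values from 0.0371 to 0.504. It was past the threshold in 1 alternative, without Prdm16SMKO replicate 1. *Dhrs4*, an NADPH-dependent reductase, had a log2 fold change of −0.13 (SE 0.18, limma adjusted p = 0.941). *Rdh10*, which carries out the retinol oxidation of the embryo, was at 3.25 ± 0.188 TPM in control and 3.41 ± 0.277 TPM in Prdm16SMKO mice (SD, n = 3 each). Its log2 fold change was 0.06 (SE 0.19, limma adjusted p = 0.985) and −0.07 with quantile normalization. Of the 9 tested genes of this role, 7 had positive log2 fold changes, beside 54.2% of all tested genes, and 2 had negative ones. The counts were 6 and 3 with quantile normalization or without control replicate 1, Prdm16SMKO replicate 1 or Prdm16SMKO replicate 2. *Adh1*, higher, was the 1 gene of the 9 with an unadjusted p below 0.05 in limma, which 4.88% of all tested genes reached in that direction.

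Of the other genes listed under retinaldehyde dehydrogenases, *Aldh1a3* was at 4.73, 2.51 and 3.17 TPM in control and at 3.82, 6.20 and 4.82 TPM in Prdm16SMKO libraries, with overlap (log2 fold change 0.47, SE 0.27, limma adjusted p = 0.722). *Aldh1a7*, listed here as the paralog of *Aldh1a1*, was at 2.08, 0.41 and 0.57 TPM in control and at 1.38, 2.78 and 7.34 TPM in Prdm16SMKO replicates (log2 fold change 1.42, SE 0.56, limma adjusted p = 0.504). No activity on retinaldehyde was measured, and *Aldh1a7* is not read here as a maker of retinoic acid. Over the alternatives *Aldh1a3* ran from 0.11 to 0.69 and *Aldh1a7* from 0.52 to 1.90, and neither was called in any. *Cyp26b1*, the 1 tested enzyme of the family that breaks down retinoic acid, was at 2.13, 3.73 and 1.99 TPM in control and at 1.2, 1.94 and 1.54 TPM in Prdm16SMKO libraries. The groups did not overlap, and the log2 fold change was −0.57 (SE 0.29, limma adjusted p = 0.673), from −0.71 to −0.33 over the alternatives. *Cyp26a1* and *Cyp26c1* were below the minimum.

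None of the 9 receptors and partners on the list passed the threshold. Of them 5 had positive and 4 negative log2 fold changes, and 3 and 6 with either rescaling, with array weights or without Prdm16SMKO replicate 2, and 2 and 7 without control replicate 3. *Rarg* and *Rara* were at 29.5 ± 1.38 and 9.35 ± 2.10 TPM in control and at 26.5 ± 3.50 and 9.23 ± 0.838 TPM in Prdm16SMKO mice (SD, n = 3 each). Their means were therefore well above those of *Rarb*, 1.53 and 2.52 TPM. Among the RXR partners, *Rxra* had a log2 fold change of −0.26 (SE 0.16, limma adjusted p = 0.756) and *Rxrb* one of −0.12 (SE 0.15, limma adjusted p = 0.922). *Rxrg*, the least abundant of them, was at 1.09 ± 0.142 TPM in control and at 1.63 ± 0.125 TPM in Prdm16SMKO mice (SD, n = 3 each), with no overlap (log2 fold change 0.42, limma adjusted p = 0.749). The co-repressor *Ncor1*, the most abundant gene of this role, had a log2 fold change of 0.06 (SE 0.15, limma adjusted p = 0.977).

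Of the genes known to respond to retinoic acid, none passed the adjusted threshold. Of the 7 tested, 6 had negative log2 fold changes, beside 45.8% of all tested genes, with a median of −0.17. This count depended on the setting: all 7 were negative with either rescaling of the libraries or without control replicate 3, but 4 without Prdm16SMKO replicate 1 and 3 without control replicate 2. For 2 of them, both lower, the unadjusted p was under 0.05, which 3.85% of all tested genes reached in that direction. *Tgm2*, tissue transglutaminase, was at 295, 417 and 272 TPM in control and at 253, 248 and 188 TPM in Prdm16SMKO libraries, with no overlap (log2 fold change −0.50, SE 0.20, limma adjusted p = 0.534). *Rarres2*, which encodes chemerin, was at 263, 258 and 223 TPM in control and at 205, 194 and 178 TPM in Prdm16SMKO libraries, again with no overlap (log2 fold change −0.37, SE 0.14, limma adjusted p = 0.507). *Hoxa5* had a log2 fold change of 0.01 (SE 0.15). Together with the 9 genes, those that retinoic acid induces were on both sides of 0, with *Rarb* above it and *Dhrs3*, *Cyp26b1*, *Rarres2* and *Tgm2* below it.

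**Figure D3:**
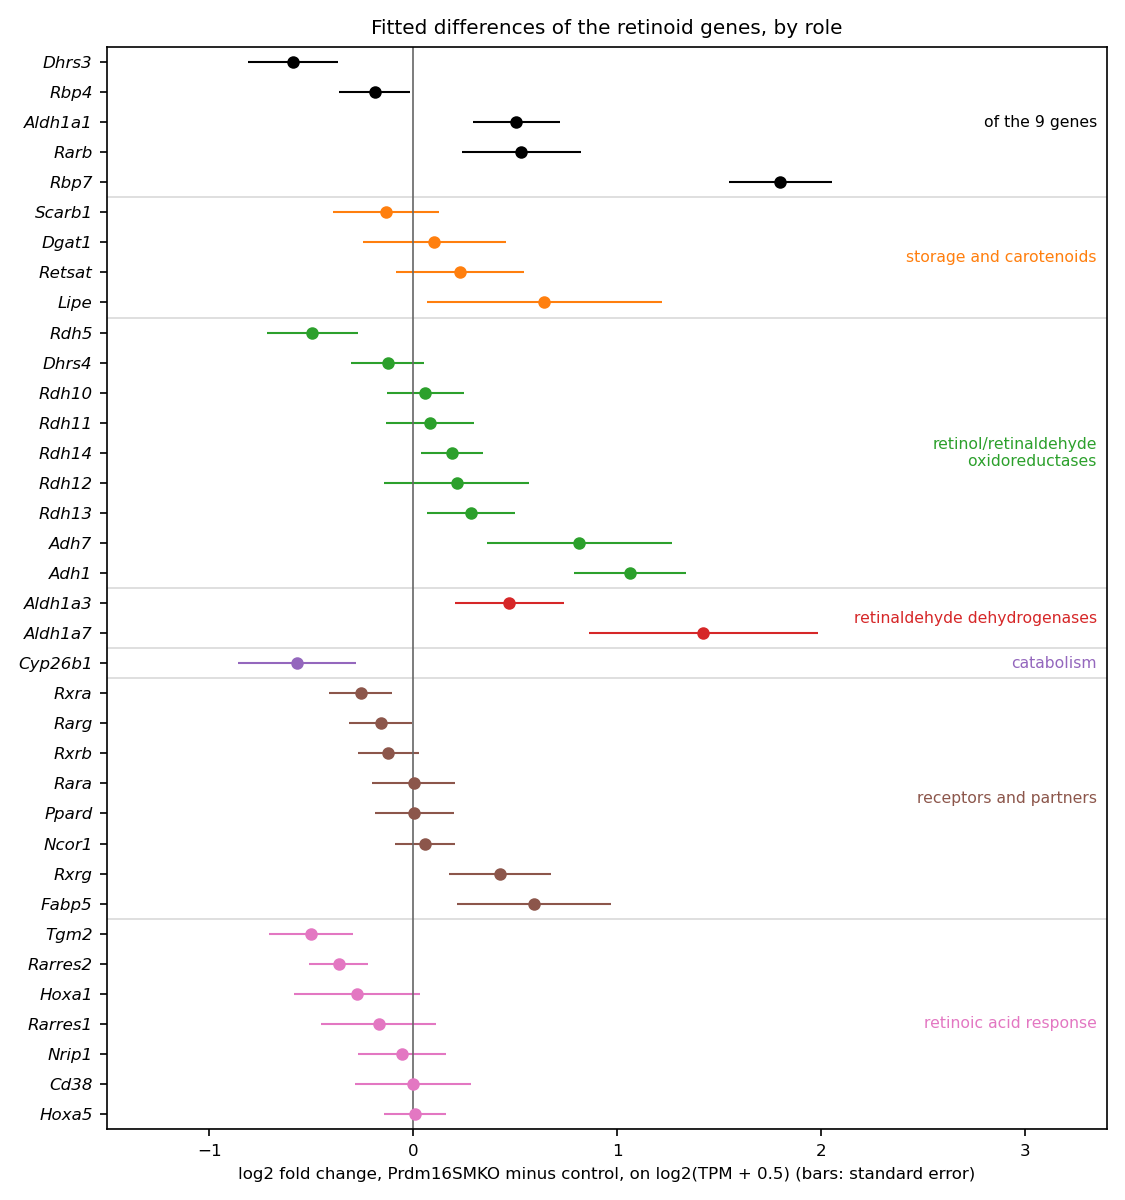
Fitted log2 fold change (Prdm16SMKO minus control) on log2(TPM + 0.5) with its standard error for the 5 tested genes of the 9, in black, and for the tested genes of the wider retinoid pathway that are reported here, coloured by role. *Rbp7* at 1.80 is the highest, and the receptors and partners shown run from −0.26 to 0.59.

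Several of these genes are known from cells other than VSMCs, so marker genes were summed in each library. VSMC markers led by *Acta2* dominated, with summed levels of 15050 to 25540 TPM in control and 11630 to 17820 TPM in Prdm16SMKO libraries. The 10 endothelial markers, among them *Pecam1* and *Cdh5*, summed to 324 to 397 TPM in control and to 340, 563 and 373 TPM in Prdm16SMKO replicates 1, 2 and 3. The 5 capillary endothelial markers, among them *Gpihbp1* and *Car4*, summed to 63.8 to 96.3 TPM in control and to 62.7, 31.7 and 125 TPM in Prdm16SMKO replicates. The 8 adipocyte markers, led by *Fabp4*, summed to 853 to 1700 TPM in control and to 1151, 1065 and 3989 TPM in Prdm16SMKO replicates, and the defining *Adipoq* and *Plin1* were above 0 in every library. Brown adipocyte markers summed to 80.5 to 254 TPM in control and to 126, 18.1 and 672 TPM in Prdm16SMKO replicates, and *Ucp1* was listed at 0 in replicate 2. Macrophage markers summed to 60.0 to 92.2 TPM in control and to 90.1 to 169 TPM in Prdm16SMKO libraries, and fibroblast markers to 1319 to 1493 and 1084 to 1928 TPM. Schwann cell markers summed to 18.0, 79.1 and 11.98 TPM in control and to 180, 67.5 and 14.4 TPM in Prdm16SMKO libraries. None of the tested marker genes was called by limma (Benjamini-Hochberg). An unadjusted p under 0.05, reached by 8.74% of all tested genes, was reached by 3 of 10 endothelial genes (1 higher and 2 lower in Prdm16SMKO mice), 1 of 5 capillary genes (lower), 2 of 8 adipocyte genes (both higher) and 4 of 6 macrophage genes (all higher). It was also reached by 2 of 7 VSMC genes and 1 of 7 fibroblast genes, all lower, and by 0 of 4 brown adipocyte and 0 of 4 Schwann cell genes. *Timp4* of the capillary list, named after its values were seen, was lower in Prdm16SMKO mice (log2 fold change −1.46, SE 0.25, limma adjusted p = 0.0620, from 0.0120 to 0.278 over the alternatives, 6 of which called it).

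Prdm16SMKO replicate 3, with the highest *Rbp7*, also had the highest adipocyte, brown adipocyte and capillary endothelial sums, 3.23, 4.54 and 1.61 times the control mean. In Prdm16SMKO replicates 1 and 2 the adipocyte sum was 0.932 and 0.863 times and the capillary sum 0.808 and 0.409 times the control mean, while *Rbp7* stood above every control library in both. The adipocyte sum is led by *Fabp4* and does not stand for every marker of the list. In replicates 1 and 2 *Adipoq* was at 38.5 and 45.0 TPM, within the control range of 21.5 to 63.3 TPM. *Retn* was at 19.1 and 17.4 TPM there, above all control libraries (11.1 to 15.8 TPM). Of the 8 markers, 7 had positive and 1 negative log2 fold changes. Relative to the capillary marker *Gpihbp1*, *Rbp7* was at 0.249 to 0.531 in control and 1.33 to 3.05 in Prdm16SMKO libraries, with no overlap. Relative to *Pecam1* the ratios were 0.0758 to 0.0933 in control and 0.277, 0.0929 and 0.435 in Prdm16SMKO replicates, so replicate 2 lay within the control range. *Pecam1* and *Vwf* were the 2 of 10 endothelial markers with such an overlap, and for the other 8, *Cdh5* among them, the ratios did not overlap. Relative to *Adipoq* they were 0.101 to 0.351 in control and 0.587, 0.413 and 0.208 in Prdm16SMKO replicates, so replicate 3 did, and the ratios overlapped for 5 of the 8 adipocyte markers. They also overlapped for 5 of the 6 macrophage, 4 of the 4 Schwann cell and 2 of the 3 brown adipocyte markers above 0 in every library, and for 0 of the 5 capillary endothelial, 7 fibroblast and 7 VSMC markers. The *Rbp7* groups were separate before any ratio was taken, so ratios to a marker that varies little stay separate. The share of all genes with separate ratios is not given here, and nothing is read from these counts. The part of these cell types in the difference of *Rbp7* was not tested. *Rbp4* did not share the adipocyte peak, since Prdm16SMKO replicate 3 had the lowest *Rbp4*, 140 TPM. Hepatocyte markers such as *Alb* summed to 0.47 to 2.66 TPM. *Dhrs3* relative to *Myh11*, the defining VSMC marker, was at 0.0416 to 0.0503 in control and at 0.0284 to 0.0391 in Prdm16SMKO libraries. This separation depended on the marker, since the ratios of *Dhrs3* overlapped between groups for 5 of the 7 VSMC markers, *Acta2* and *Tagln* among them.

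**Figure D4:**
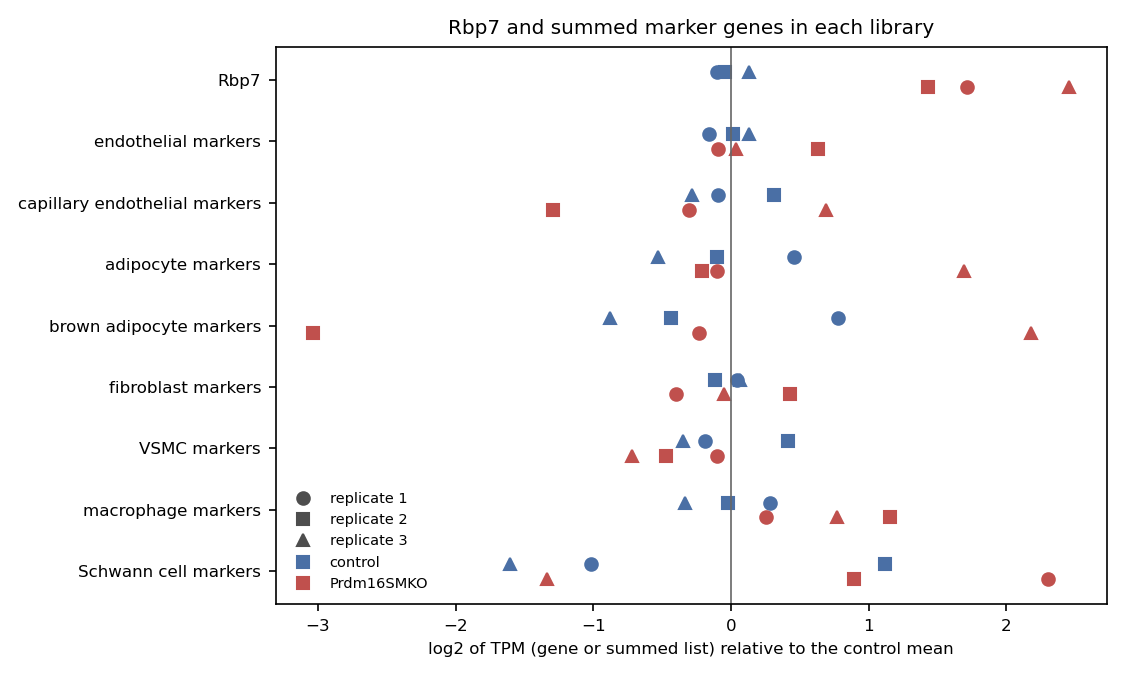
*Rbp7* and the summed marker genes of 8 cell types in each library, as the log2 of TPM relative to the mean of the control libraries, with control in blue, Prdm16SMKO in red and a symbol for each replicate number. *Rbp7* is above every control library in the 3 Prdm16SMKO libraries and reaches 5.49 times the control mean. The adipocyte sum, led by *Fabp4*, is above its control mean in replicate 3 of that group only.

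Over the 6 libraries, the 9665 other genes that averaged 5 TPM or more were compared with *Rbp7* and *Rbp4* by the root mean square difference of their mean-centred log2 values, where 0 is an identical pattern. The patterns nearest to *Rbp7* were those of *Gm15446* (0.29), *Gm21887* (0.40), *Mid1* (0.43), *Hccs* (0.44) and *Lamb1* (0.45). None of these lies on chromosome 4, and *Gm21887*, *Mid1* and *Hccs* are on the X chromosome. *Lamb1*, a laminin chain of basement membranes, shared the high value of Prdm16SMKO replicate 3, with 14.4 TPM there against 3.07 to 6.89 TPM elsewhere. The patterns nearest to *Rbp4* were far closer, with *Fmnl3*, *Adgrl2*, *Tceal8*, *Vmac* and *Thbs3* at 0.03 to 0.04, as *Rbp4* varied little between libraries.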

How the data were processed

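The authors deposited TPM values for 55426 genes, rounded to 2 decimals, 1 column per library. The submitters' processing notes name STAR 2.7.8a, RSEM 1.3.3, cutadapt 2.3 and GRCm38. The annotation release is not given in the sources used here. Libraries were read as pairs of 151 bp, 40 M pairs on average per the labels. TPM keep no depth, so no counting error was computed. Genes taking a large share of a library lower the TPM of all others. Libraries were joined to groups by their labels, and 0 pairs were identical.

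log2(TPM + 0.5) of the 15775 genes averaging 0.5 TPM or more was fitted with limma 3.58.1 in R 4.3.3, with trended moderated variances and two-sided tests, adjusted by the Benjamini-Hochberg method over all genes. The fit was tested on simulated data. Positions are from GENCODE M21. The genes and lists were chosen with earlier results of these data known. By rule the text names the 9 genes, pathway genes called or among the 2 most abundant of a role, neighbours called or nearest, leading and defining markers, and the 5 patterns nearest to *Rbp7* and *Rbp4*. Other names were added after their values were seen. Some genes of the pathway list enter its counts but are not reported here by name.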

Additional observations from a re-analysis of the deposited data

How the results depend on the processing

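The fit was repeated with 16 alternatives: 2 other pseudocounts (0.1 and 1), a minimum of 2 TPM or none, median-of-ratios scaling, quantile normalization, other variance models, array weights, a replicate block and each library left out. All 16 kept the signs of *Rbp4*, *Rbp7*, *Aldh1a1*, *Rarb* and *Dhrs3*, while the sizes of all but *Rbp7* moved by over 1.5 times in at least 1. The number of all genes called was 494 with array weights, 153 with median-of-ratios scaling, 129 with quantile normalization, 112 with robust variances, 33 without a variance trend, 10 without an expression minimum and 5 to 61 with 1 library left out, against 56. The array weights were 10.1 for control replicate 1 and 0.414 to 0.954 for the other libraries, so the control values of that setting rest mostly on 1 library. The lowest adjusted p-values of *Gm13071*, *Ube4bos2* and *Timp4* given above, and the lowest median of the pathway list, came from that setting. *Rbp7*, the 1 called of the 9 genes, was not called with median-of-ratios scaling, quantile normalization, no variance trend or no expression minimum (0 called), and with 1 library left out the number was 0 or 1, being 0 without control replicate 1, 2 or 3. Of the wider pathway 7 genes had an unadjusted p under 0.05 with array weights, median-of-ratios scaling or quantile normalization and 1 to 6 with 1 library left out, against 4. The number called stayed at 0 except without Prdm16SMKO replicate 1, where it was 1 (*Adh1*). Of the marker genes, 3 were called with array weights (*Timp4*, *Vwf* and *Cldn5*), 1 (*Timp4*) with median-of-ratios scaling, quantile normalization, robust variances or a minimum of 2 TPM, and 0 or 1 with 1 library left out. The share of genes near *Prdm16*, here with *Rbp7* and *Dhrs3*, with an unadjusted p under 0.05 was 27.8%. It was 39.2% with array weights, 35.1% with median-of-ratios scaling or quantile normalization, 19.8% without an expression minimum and 20.5% to 28.7% with 1 library left out. Over all tested genes the share was 8.74% in the main fit, and it is not given here for the alternatives. A change of the region or the pathway relative to all genes can therefore not be read from these values. The cause of these moves was not tested.

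There was no sign that the replicate numbers pair the libraries. The deviations of same-numbered libraries from their group means correlated across genes at −0.13, −0.11 and 0.02. Those of differently numbered libraries correlated at −0.17 to 0.24. With 3 libraries per group, such correlations cannot exclude that the mice were paired. With the replicate block 4 genes were called in all and 0 of the 9.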
